A study of Mus musculus with 49 samples.

Results

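Transcripts of the general RNA polymerase II transcription machinery were followed in single late 2-cell mouse embryos after acute removal of TBP or FOXJ3. The set held 43 of the 54838 genes counted: all protein-coding genes whose symbol begins with Taf and a digit (Taf15 left out) or with Gtf2a, Gtf2b, Gtf2e, Gtf2f or Gtf2h, together with Ercc2, Ercc3, Cdk7, Ccnh, Mnat1, Btaf1, Dr1 and Drap1. By role these were 13 TAFs of TFIID, 3 TAF paralogs, 2 TAF-like subunits of SAGA, 4 TAFs of SL1, 3 genes of TFIIA, 1 of TFIIB, 2 of TFIIE, 2 of TFIIF, 7 of the TFIIH core, 3 of the CDK-activating kinase (CAK) of TFIIH and 3 regulators of TBP. The rule used names alone, and no measured value.

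Embryos were F1(C57BL/6JxCBA/H) zygotes that all received 2 injections, an antibody and, after 4 h of culture, mRNA of mCherry-Trim21, a ubiquitin ligase that binds antibodies and sends the bound protein to degradation (Trim-Away). For TBP LOF (loss of function) the antibody was the mouse monoclonal 3G3 against TBP, and its CONTROL embryos received mouse IgG (mIgG). For FOXJ3 LOF it was a rabbit polyclonal antibody against FOXJ3, with rabbit IgG (rIgG) for its CONTROL embryos, and these embryos were prepared in 2 library batches. All were collected 48 h post-hCG, and 5' ends of transcripts were counted by Smart-seq+5'. After removal of 2 shallow libraries, 9 TBP LOF and 9 mIgG CONTROL embryos and 16 FOXJ3 LOF and 13 rIgG CONTROL embryos were compared, with 1103569 to 5434808 counted reads each. The injected antibody removes protein, not RNA, and neither protein was measured in these files, so that the degree of removal in each sequenced embryo is unknown.

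Initiation by RNA polymerase II begins when TFIID, made of TBP and the TAFs, recognises the core promoter, with TFIIA and TFIIB joining at TBP. TFIIF brings the polymerase, TFIIE recruits TFIIH, and TFIIH opens the DNA with its XPB helicase and phosphorylates the polymerase through the CAK. TBP also works with other TAFs in SL1, which serves RNA polymerase I, and in TFIIIB, which serves RNA polymerase III, and the late 2-cell stage of the mouse is when transcription of the embryonic genome sets in on a large scale.

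In TBP LOF embryos the machinery did not move as 1 block. Of all 18447 genes tested 29.8% were lower and 1.4% higher. Among the 7699 better expressed genes (filterByExpr rule of edgeR) 52.7% were lower, so that a mix of called and uncalled genes is not particular to this set. All 7 genes of the TFIIH core, all 3 of the CAK, both of TFIIE, both of TFIIF, all 4 TAFs of SL1 and both SAGA-type TAFs were lower than in mIgG CONTROL embryos, whereas 0 of 3 genes of TFIIA and 0 of 1 of TFIIB passed the test in either direction. The calls of Ercc2, Gtf2h3 and Mnat1 of TFIIH changed with the embryos included, as given with these genes. Among the 13 TAFs of TFIID, 4 were lower (Taf7, Taf8, Taf9 and Taf11), 1 was higher (Taf12, a call lost without LOF embryo 10) and 8 did not pass. After FOXJ3 removal 0 of the 43 members passed, where 0.0107% of 18626 genes did.

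In number, 25 of 43 members were lower and 1 was higher in TBP LOF embryos at an adjusted p under 0.05 (edgeR quasi-likelihood test, embryos scaled by their ERCC spike-ins), where 29.8% of the 18447 genes tested were lower and 1.4% higher. All 43 passed the filter on low counts. The median log2 fold change was -1.07 over the members and -0.70 over all genes tested. Called shares rise with read number: when testing was limited to the better expressed genes by the filterByExpr rule of edgeR, 23 of the 38 members left were lower, against 52.7% of 7699 genes. The members' share of gene reads, a measure that needs no spike-in, was 0.252% ± 0.053 (SD, n = 9) in TBP LOF and 0.353% ± 0.028 (SD, n = 9) in mIgG CONTROL embryos. It was 0.367% ± 0.058 (SD, n = 16) in FOXJ3 LOF and 0.408% ± 0.079 (SD, n = 13) in rIgG CONTROL embryos. This share is a sum that weighs Taf7 and Taf9 the most (7370 and 4590 reads in mIgG CONTROL embryos). In TBP LOF and mIgG CONTROL embryos ERCC reads made up 4.29% ± 1.19 (SD) and 2.76% ± 0.37 (SD) of counted reads. Reads of the injected mCherry-Trim21 construct in the same groups were 1269 ± 898 (SD) and 809 ± 407 (SD) CPM (counts scaled to a common total of counted reads). With their level as a covariate 25 members were lower and 1 higher, as were 5564 and 229 of the 18447 genes. All embryos were collected 48 h post-hCG, and the paper names the same stage for all of them. The sources used here give no cell number for single embryos. The paper reports that TBP LOF embryos were shifted towards earlier stages than CONTROL embryos in a principal component analysis. It proposes that a developmental delay went along with the change in transcripts. The part of stage or cell number in these values was not tested. Each embryo was sequenced whole, and RNA per cell was not measured.

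**Figure D1:**
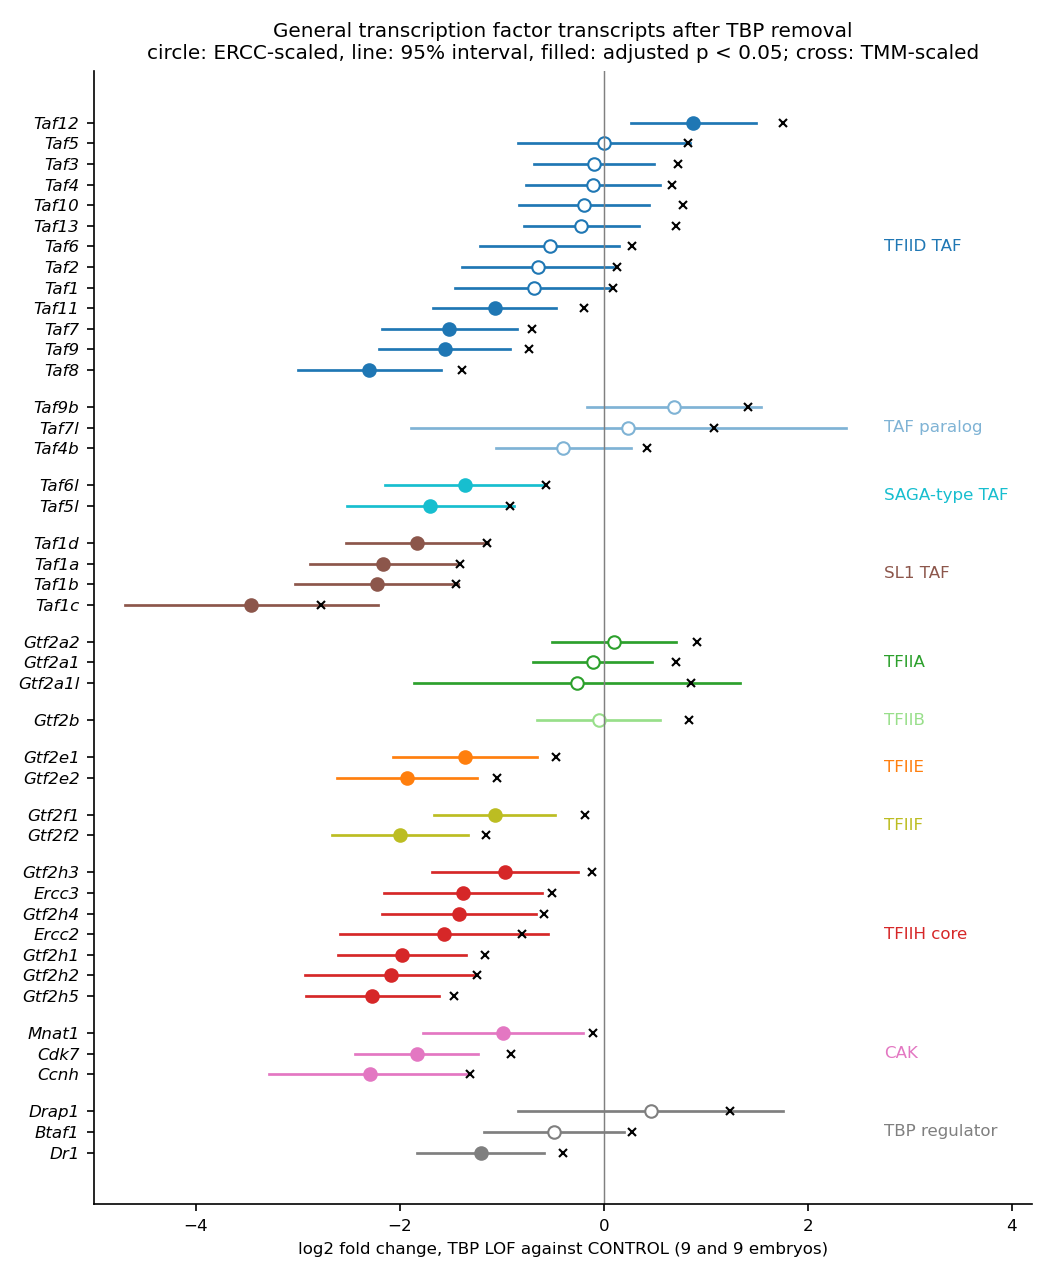
Log2 fold change of each of the 43 members in TBP LOF against mIgG CONTROL embryos (horizontal axis; n = 9 and 9), grouped by role: circles are ERCC-scaled values with 95% intervals, filled where the adjusted p is under 0.05, and crosses are TMM-scaled values. All members of TFIIE, TFIIF, TFIIH, CAK and SL1 lie left of 0 with filled circles, those of TFIIA and TFIIB lie near 0, and the TFIID TAFs run from -2.30 for Taf8 to 0.88 for Taf12.

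**Figure D2:**
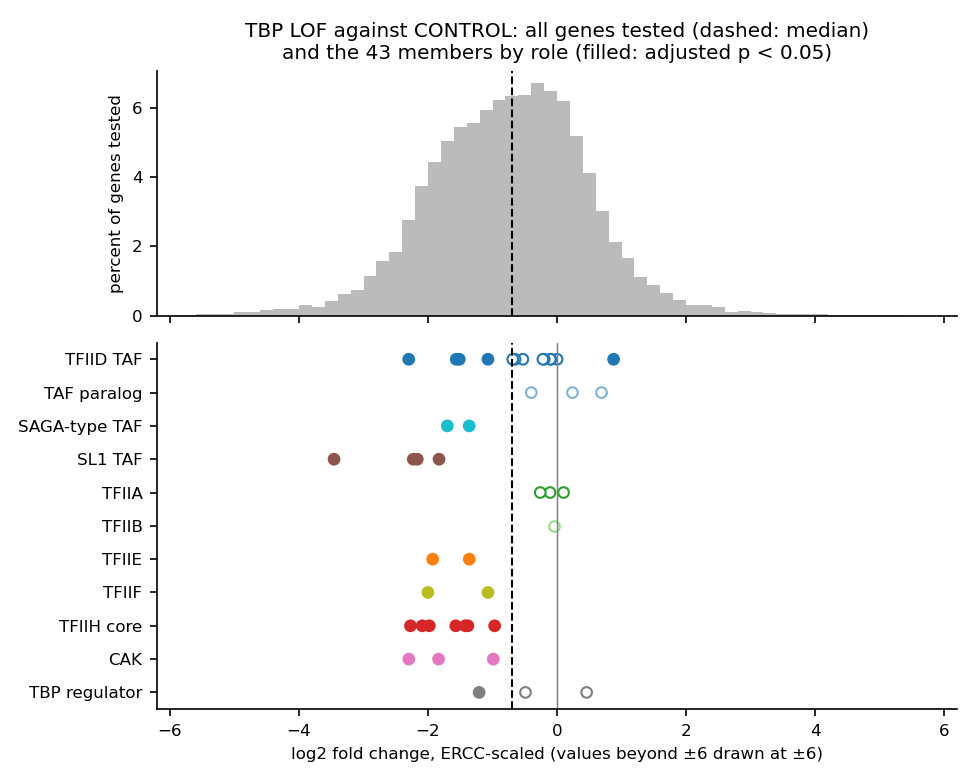
Percent of the 18447 genes tested by log2 fold change in TBP LOF against CONTROL embryos (upper panel, dashed line at the median of -0.70) and the 43 members by role on the same axis (lower panel; filled where called). The 7 genes of the TFIIH core all lie below the median of all genes, and the 3 genes of TFIIA all lie above it.

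The scaling sets where 0 lies. With TMM, which centres the embryos on the bulk of their own transcripts, the median over all genes moved from -0.70 to 0.13, 12.9% of genes were lower and 13.2% higher, and of the members 13 were lower and 10 higher. The members lower under both scalings were Taf1a, Taf1b, Taf1c, Taf1d, Taf8, Taf9, Gtf2e2, Gtf2f2, Gtf2h1, Gtf2h2, Gtf2h5, Cdk7 and Ccnh. Those higher with TMM were Taf12, Taf3, Taf4, Taf5, Taf10, Taf13, Taf9b, Gtf2a1, Gtf2a2 and Gtf2b, of which Taf12 alone was also called higher with ERCC scaling. A further 12 members were lower with ERCC scaling and not called with TMM, 8 were called by neither, and 0 changed from lower to higher.

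A ratio of 2 sets of reads within an embryo does not depend on the scaling. Reads of TFIIH (core and CAK) per read of TFIIA and TFIIB had a lowest value of 0.254, a median of 0.617 and a highest value of 0.848 in TBP LOF embryos, against 1.06, 1.88 and 2.65 in mIgG CONTROL embryos, and the groups did not overlap. For the SL1 TAFs the ratio was 0.0887, 0.304 and 0.899 in TBP LOF and 0.975, 1.34 and 1.67 in CONTROL embryos, again without overlap. TFIIE and TFIIF together gave 0.191, 0.534 and 0.904 against 0.905, 1.20 and 2.10, so that the groups met but did not cross, and the TFIID TAFs gave 1.32, 2.32 and 3.23 against 2.74, 3.45 and 5.36, with overlap. The denominator was picked after the fold changes were seen, and these ratios are given as a description.

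In the FOXJ3 experiment the TFIIH ratio was 1.07, 2.02 and 3.25 in LOF and 0.334, 2.14 and 4.81 in rIgG CONTROL embryos. The low end was set by 2 CONTROL embryos of batch 1, embryo 3 with 386 TFIIH and 1156 TFIIA and TFIIB reads (ratio 0.334) and embryo 2 with 566 and 894 reads (0.633), both inside the range of TBP LOF. Their depth of 2214285 and 2171591 counted reads was close to the group's median of 2183817. The number of members called after FOXJ3 removal was 0 with either of them left out, as it was with all embryos. They were not left out together, so that their joint part is not known. The SL1 ratio was 0.769, 1.05 and 1.52 in FOXJ3 LOF and 0.176, 1.34 and 2.26 in rIgG CONTROL embryos. Here 6 of 16 FOXJ3 LOF and 4 of 13 rIgG CONTROL embryos lay within the range of TBP LOF (up to 0.899).

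**Figure D3:**
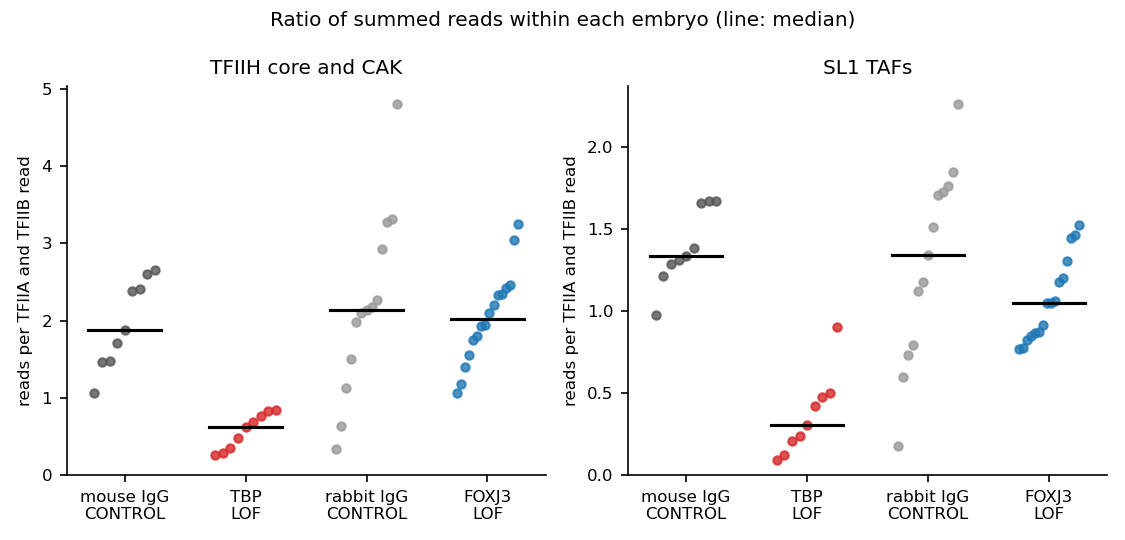
Reads of the TFIIH core and CAK (left) and of the SL1 TAFs (right) per read of TFIIA and TFIIB in each embryo (points; line, median) in the 4 groups. TBP LOF embryos lie between 0.254 and 0.848 for TFIIH, below all mIgG CONTROL embryos, and 2 rIgG CONTROL embryos reach as low; for SL1, 6 FOXJ3 LOF and 4 rIgG CONTROL embryos lie within the TBP LOF range.

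Core promoters of the members are of interest here because TBP binds the TATA box. RefSeq promoter windows (GRCm38.p6, 250 bases before to 50 after the start) were found for 37 members, 46 windows in all. The letters TATAAA on the sense strand with their first base 40 to 20 bases before the start were found in 1 of the 46 windows (2.17%), that of Taf13, against 1.99% of all 32851 windows and 2.48% of the 20143 windows of protein-coding genes. None of the 27 windows of members called lower in TBP LOF held it. On either strand anywhere in the window, TATAAA was in 8 of the 46 (17.4%; 13.6% of all and 12.1% of protein-coding windows; 2 of 27 windows of members called lower and 6 of 18 of members not called), GGGCGG, the letters of a GC box, in 29 (63.0%; 35.7% of all and 47.8% of protein-coding windows) and CCAAT in 13 (28.3%; 37.4% of all and 37.8% of protein-coding windows). CG dinucleotides numbered 23 per window at the median of members, 14 in protein-coding and 7 in all windows. A match of letters is a description and not a binding site.

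Stretches from 100 bases before to 20 bases after the start are shown for the only member with TATAAA at the usual place (Taf13), for 4 members with single windows that were lower in every TBP LOF embryo than in every CONTROL embryo, and for the 1 member called higher (Taf12). Capitals mark the letters of these 3 motifs on either strand.
Taf13, chr3:108571599-108571718 (+ strand): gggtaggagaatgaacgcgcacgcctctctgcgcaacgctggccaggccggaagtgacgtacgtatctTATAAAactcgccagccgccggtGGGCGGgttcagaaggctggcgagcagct
Cdk7, chr13:100730923-100731042 (- strand): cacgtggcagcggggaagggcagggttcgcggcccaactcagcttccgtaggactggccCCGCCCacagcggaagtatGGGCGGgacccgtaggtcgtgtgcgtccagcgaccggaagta
Gtf2h1, chr7:46795994-46796113 (+ strand): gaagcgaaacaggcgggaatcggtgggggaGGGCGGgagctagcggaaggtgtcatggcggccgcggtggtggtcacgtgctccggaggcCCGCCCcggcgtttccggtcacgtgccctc
Gtf2f2, chr14:76010846-76010965 (- strand): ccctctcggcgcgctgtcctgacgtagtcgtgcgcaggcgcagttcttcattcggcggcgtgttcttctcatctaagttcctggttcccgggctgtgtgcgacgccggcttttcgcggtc
Taf8, chr17:47502272-47502391 (- strand): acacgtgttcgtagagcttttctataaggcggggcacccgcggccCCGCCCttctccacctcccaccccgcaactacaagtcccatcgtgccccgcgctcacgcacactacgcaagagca
Taf12, chr4:132274275-132274394 (+ strand): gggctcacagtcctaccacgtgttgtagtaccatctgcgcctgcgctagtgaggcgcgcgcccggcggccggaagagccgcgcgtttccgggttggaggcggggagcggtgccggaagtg
Cdk7 holds 2 GC boxes in this stretch, Gtf2h1 2 and Taf8 1, while the stretches of Gtf2f2 and Taf12 hold none of the 3 motifs. Taf13, with TATAAA beginning 32 bases before the start, is among the members that did not pass the test.

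TFIIH is a ring of core subunits with 2 helicases, and it serves both initiation and nucleotide excision repair. Gtf2h5 (chr17:6079786-6086517, + strand), its smallest subunit, had lowest, median and highest ERCC-normalized counts of 24.9, 67.6 and 151 in TBP LOF embryos and 259, 325 and 588 in CONTROL embryos (log2 fold change -2.27 (SE 0.33), adjusted p = 2.06e-07). Every LOF embryo lay below every CONTROL embryo. Gtf2h1, the p62 subunit, had 27.04, 59.4 and 105 in LOF and 162, 229 and 425 in CONTROL embryos (log2 fold change -1.98 (SE 0.31), adjusted p = 1.16e-06), also without overlap. Gtf2h2, the p44 subunit, read 2.46, 9.83 and 24.1 against 19.1, 34.9 and 94.2 (log2 fold change -2.09 (SE 0.42), adjusted p = 6.90e-05). Only 1 of 9 LOF embryos reached the CONTROL range. With TMM these 3 remained lower, at -1.47, -1.17 and -1.25.

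The helicase genes and the remaining core subunits were also lower. Ercc2, which encodes the repair helicase XPD, changed by -1.57 on the log2 scale (adjusted p = 0.014), and Ercc3, which encodes XPB, by -1.38 (adjusted p = 0.0041). Gtf2h4, the p52 subunit that holds XPB, changed by -1.42 (adjusted p = 0.0023) and Gtf2h3, the p34 subunit, by -0.97 (adjusted p = 0.033). With TMM scaling none of these 4 was called (log2 fold changes -0.81 to -0.11). In the 14 embryos whose number occurs in both groups, a smaller set, Ercc2 was not called (log2 fold change -1.04, adjusted p = 0.175). The call of Gtf2h3 was lost in 7 of the 18 fits that left out 1 embryo, among them those without CONTROL embryo 10 (adjusted p = 0.087) and LOF embryo 2 (adjusted p = 0.064). On the opposite strand, exons of Ercc2 share 1025 bases with Gm26852 and 744 with Klc3, and the sources used here do not say whether strand was used in counting.

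The CAK is made of the kinase Cdk7, cyclin H and the assembly factor Mnat1. Cdk7 counts were 23.2, 38.7 and 68.6 (lowest, median, highest) in LOF and 107, 139.9 and 203 in CONTROL embryos, with no overlap (log2 fold change -1.84 (SE 0.30), adjusted p = 2.80e-06). Ccnh, the cyclin, had 0, 3.62 and 21.3 against 8.13, 29.5 and 59.1 (log2 fold change -2.30 (SE 0.49), adjusted p = 1.71e-04). Here 2 of 9 LOF embryos reached into the CONTROL range, on 77 and 251 reads in all. Mnat1 was the weakest of the 3, with 2.9, 14.7 and 40.2 against 17.4, 29.8 and 68.6 (log2 fold change -0.99 (SE 0.39), adjusted p = 0.046). Its call was lost in 11 of the 18 fits that left out 1 embryo, with adjusted p up to 0.12 (without CONTROL embryo 3), and with TMM it stood at -0.11.

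Both subunits of TFIIE, which recruits TFIIH, and of TFIIF, which escorts the polymerase, were lower. Gtf2e2, the beta subunit of TFIIE, had counts of 7.32, 15.97 and 34.9 in LOF and 48.5, 69.1 and 105 in CONTROL embryos, without overlap (log2 fold change -1.93 (SE 0.34), adjusted p = 1.10e-05). Gtf2e1, the alpha subunit, had 8.79, 30.5 and 60.3 against 37.9, 53.3 and 139 (log2 fold change -1.36 (SE 0.35), adjusted p = 0.0019), and 2 of 9 LOF embryos reached into the CONTROL range. For Gtf2f2, which encodes RAP30 of TFIIF, the values were 36.6, 73.6 and 225 against 266, 392 and 785, with no overlap (log2 fold change -2.001 (SE 0.33), adjusted p = 3.27e-06). Gtf2f1, which encodes its partner RAP74, read 57.4, 85.7 and 179 against 119, 199.6 and 353 (log2 fold change -1.07 (SE 0.30), adjusted p = 0.0035). In each pair 1 subunit was also lower with TMM, Gtf2e2 at -1.04 and Gtf2f2 at -1.16, and the other was not called, Gtf2e1 at -0.47 and Gtf2f1 at -0.18.

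**Figure D4:**
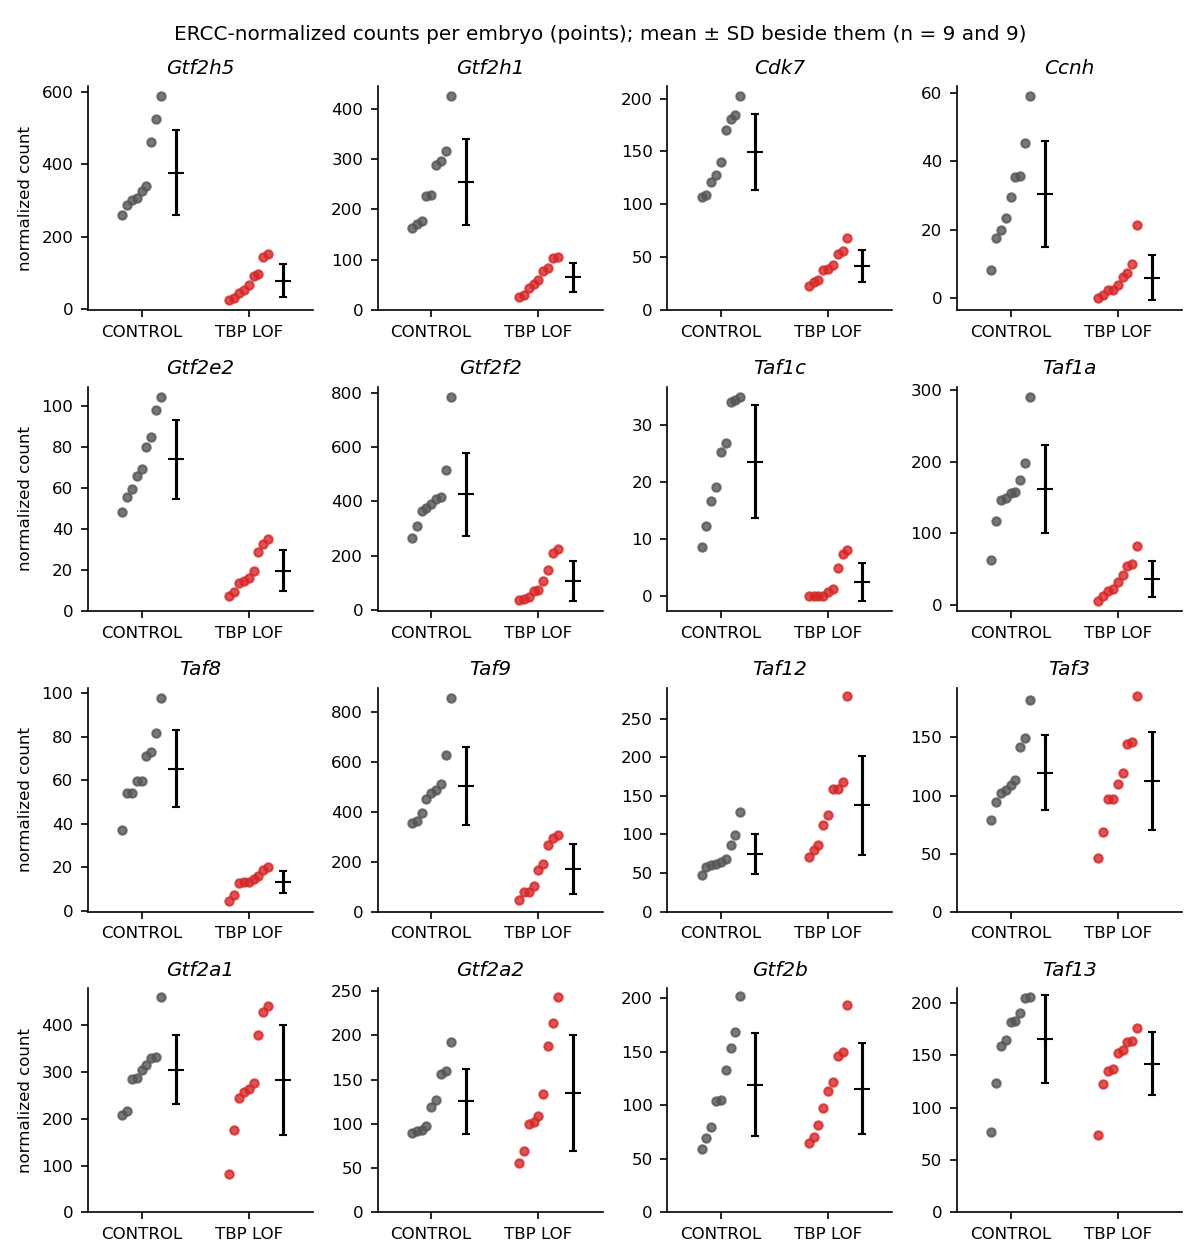
ERCC-normalized counts (vertical axis) of 16 members in each mIgG CONTROL (grey) and TBP LOF (red) embryo, sorted within a group, with mean ± SD beside the points (n = 9 and 9). Gtf2h5, Gtf2h1, Cdk7, Gtf2e2, Gtf2f2, Taf1c, Taf8 and Taf9 show no overlap between groups, and Taf3, Taf13, Gtf2a1, Gtf2a2 and Gtf2b overlap through most of their range. For Taf13 all 9 LOF embryos nonetheless lie below the CONTROL median.

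TFIIA and TFIIB, the factors that touch TBP on the promoter, stood apart from these. Gtf2a1, the precursor of the alpha and beta subunits of TFIIA, had counts of 82.3, 263 and 439.9 in LOF and 209, 303 and 459.9 in CONTROL embryos (log2 fold change -0.11 (SE 0.29), adjusted p = 0.83), and the gamma subunit Gtf2a2 had 56.02, 109 and 244 against 90.3, 119.6 and 193 (log2 fold change 0.10 (SE 0.30), adjusted p = 0.85). Gtf2b, the single gene of TFIIB, had 64.3, 114 and 194 against 59.4, 105 and 202 (log2 fold change -0.05 (SE 0.30), adjusted p = 0.92). LOF and CONTROL embryos overlapped in all of them. The 95% intervals of the log2 fold change were -0.69 to 0.48, -0.50 to 0.71 and -0.66 to 0.55, which leave out the fold changes of Gtf2h5, Cdk7 and Gtf2f2 but not smaller decreases. With TMM they were higher, at 0.71 (adjusted p = 0.0095), 0.91 (adjusted p = 0.0018) and 0.84 (adjusted p = 0.0077). Gtf2a1l, a germ cell paralog of Gtf2a1, had 47 reads in LOF and 22 in CONTROL embryos in all, too few to place it (interval -1.86 to 1.34).

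The TAFs of TFIID split among themselves. Taf8, which joins the lobes of TFIID with Taf10 and Taf2, had the lowest fold change of the group, with counts of 4.35, 13.3 and 20.3 in LOF and 37.1, 59.9 and 97.9 in CONTROL embryos and no overlap (log2 fold change -2.30 (SE 0.35), adjusted p = 7.12e-07). Taf9, a histone fold TAF that pairs with Taf6, had 46.9, 168 and 305 against 357, 477 and 858, also without overlap (log2 fold change -1.56 (SE 0.32), adjusted p = 9.13e-05). Exons of Taf9 share 1564 bases with Ak6 on the same strand, so that its reads cannot be assigned to Taf9 alone. Taf7, a partner of Taf1, fell by 1.52 on the log2 scale (adjusted p = 2.37e-04), and Taf11, a partner of Taf13, by 1.07 (adjusted p = 0.0039). With TMM, Taf8 and Taf9 remained lower and Taf7 and Taf11 were not called. Other TFIID TAFs share exon bases with genes on the opposite strand, Taf10 2106 with Ilk, Taf6 1185 with Ap4m1, and Taf11 547 with AC126040.2 and 341 with Anks1.

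Taf12 (chr4:132274375-132295766, + strand), a histone fold TAF that pairs with Taf4, was the 1 member called higher. Its counts were 70.3, 125 and 279 in LOF and 47.1, 63.7 and 128 in CONTROL embryos (log2 fold change 0.88 (SE 0.31), adjusted p = 0.022), and all 9 LOF embryos lay above the CONTROL median while 4 lay above the highest CONTROL embryo. The call was lost without LOF embryo 10, the highest (log2 fold change 0.67, adjusted p = 0.085), and held in the other 17 fits that left out 1 embryo. Of the 8 TFIID TAFs that did not pass, Taf1, the largest subunit, and Taf2 had log2 fold changes of -0.69 and -0.65, and Taf6 of -0.53. Taf3, which binds trimethylated histone H3, Taf4 and Taf5, which scaffold the complex, and Taf10 and Taf13 lay between -0.22 and 0.001. These last 5 had intervals from -0.85 to 0.85 and were higher with TMM (0.67 to 0.82). For Taf13 all 9 LOF embryos lay below the CONTROL median of 181, and 1 lay below the lowest CONTROL embryo. Taf6 passed in 1 fit, that without LOF embryo 8 (log2 fold change -0.84, adjusted p = 0.048).

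Paralogs of these TAFs are known from germ cells or as stand-ins in TFIID, and 0 of 3 passed. Taf4b, the TAF4 paralog of the ovary, had 31.4, 134 and 237 in LOF and 85.6, 137 and 351 in CONTROL embryos (log2 fold change -0.40 (SE 0.33), adjusted p = 0.40). Taf9b, a close relative of Taf9, had 7.24, 35.2 and 66.8 against 1.81, 25.2 and 47.4 (log2 fold change 0.69 (SE 0.43), adjusted p = 0.23), with the opposite sign to Taf9. It was higher with TMM, at 1.41 (adjusted p = 0.0063), and also with embryo number as a replicate block, at 0.96 (edgeR, adjusted p = 0.048). Taf7l, a paralog of Taf7 from male germ cells, had 14 and 12 reads in all.

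SAGA, a coactivator that acetylates and deubiquitinates histones, holds its own forms of TAF5 and TAF6. Taf5l had 1.21, 12.1 and 36.1 in LOF and 25.7, 43.8 and 77.2 in CONTROL embryos (log2 fold change -1.70 (SE 0.41), adjusted p = 8.45e-04), and Taf6l had 3.66, 12.3 and 39.7 against 26.6, 36.1 and 64.5 (log2 fold change -1.36 (SE 0.39), adjusted p = 0.0049). In both, a single LOF embryo reached into the CONTROL range, and neither was called with TMM. Their TFIID counterparts Taf5 and Taf6 did not pass, at 0.001 and -0.53. The difference between counterparts was not tested.

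The SL1 TAFs, which bring TBP to ribosomal DNA, had the lowest fold changes among the roles, with a median of -2.20. Taf1c (chr8:119597871-119605222, - strand) had counts of 0, 0.614 and 7.94 in LOF and 8.56, 25.3 and 34.9 in CONTROL embryos, on 20 and 237 reads, without overlap (log2 fold change -3.46 (SE 0.62), adjusted p = 1.15e-05). Taf1a had 5.86, 31.9 and 82.6 against 62.3, 156 and 290.2 (log2 fold change -2.17 (SE 0.36), adjusted p = 3.00e-06). Both groups met for Taf1a only in the highest LOF embryo. Taf1b had 2.9, 17.8 and 53.1 against 46.6, 101 and 122 (log2 fold change -2.23 (SE 0.40), adjusted p = 1.23e-05), and Taf1d had 31.5, 126 and 346 against 250.4, 509 and 680.03 (log2 fold change -1.83 (SE 0.35), adjusted p = 3.11e-05). All 4 were also lower with TMM (-2.78 to -1.14). Exons of Taf1c share 584 bases with Dnaaf1 on the opposite strand, and exons of Taf1d enclose snoRNA genes on the same strand.

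Of the 3 regulators of TBP, 1 was lower. Dr1, the beta subunit of the NC2 repressor that clamps TBP on DNA, had 58.6, 99.98 and 289 in LOF and 155, 258 and 420.5 in CONTROL embryos (log2 fold change -1.21 (SE 0.31), adjusted p = 0.0017), and 2 of 9 LOF embryos reached into the CONTROL range. Its partner Drap1, the NC2 alpha subunit, had 75 and 40 reads in all and a log2 fold change of 0.46 (interval -0.84 to 1.76). Btaf1, the ATPase that strips TBP from DNA, had 10.4, 43.6 and 79.7 against 28.5, 61.4 and 94.97 (log2 fold change -0.49 (SE 0.34), adjusted p = 0.30). Neither Drap1 nor Btaf1 passed.

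Over all members, 8 had every LOF embryo below every CONTROL embryo, as did 6.96% of all genes tested, and 0 had every LOF embryo above. That share includes sparse genes and is not matched to the members in read number. The transcript of Tbp itself was among the lower genes, with counts of 6.59, 83.3 and 151 in LOF and 195, 279.5 and 672 in CONTROL embryos (log2 fold change -2.14 (SE 0.37), adjusted p = 5.26e-06). Because Trim-Away acts on protein, this is no check of the removal.

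A further 34 genes were read in the same fits, those of TFIIIB, TFIIIC and TFIIIA, RNA polymerase I initiation and SAGA, Tbp with its paralogs, and the Gtf2i family, which shares only its name with the general factors. Of these 26 were lower and 0 higher with ERCC scaling, where 29.8% of all genes and 52.7% of the better expressed ones were lower, and 14 were lower and 1 higher (Gtf2ird1 of the Gtf2i family) with TMM, where 12.9% of all genes were lower and 13.2% higher. Of TFIIIB, which places TBP for RNA polymerase III, 3 of 3 were lower (Brf2 -2.20, adjusted p = 1.75e-06; Bdp1 -1.61; Brf1 -1.29). The call of Brf1 (adjusted p = 0.032) was lost in 5 of the 18 fits that left out 1 embryo, those without LOF embryos 7 and 9 and CONTROL embryos 3, 8 and 10, with adjusted p up to 0.11, and with TMM (-0.57, adjusted p = 0.33). Of TFIIIC and TFIIIA 6 of 7 were lower (4 with TMM), by adjusted p led by Gtf3c5 (-2.15, adjusted p = 1.02e-06), Gtf3c1 (-1.82) and Gtf3c3 (-2.14). Both RNA polymerase I factors were lower, Ubtf at -1.81 and Rrn3 at -1.30, and with TMM Rrn3 was not called (-0.52, adjusted p = 0.12). Of SAGA 13 of 16 were lower (6 with TMM), and the smallest adjusted p belonged to Supt20 (-2.11), Sf3b5 (-2.27), which is also a splicing factor, and Usp22 (-2.35), the SAGA deubiquitinase. The call of Sgf29, a SAGA subunit, was lost without CONTROL embryo 8 (log2 fold change -0.96, adjusted p = 0.077). The TBP paralogs Tbpl1 and Tbpl2 did not pass (-0.53 and 0.19), and of the Gtf2i family Gtf2i was lower (-1.25), though not with TMM (-0.49, adjusted p = 0.20).

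FOXJ3 removal was measured in the same way. Of the 43 members 0 passed (edgeR, TMM scaling with library batch as a covariate; smallest adjusted p 0.79), where 0.0107% of 18626 genes passed, and DESeq2 also called 0. At an unadjusted p under 0.05 there were 2 members, against 5.69% of all genes. These were Taf13, with normalized counts of 114, 186 and 325 in LOF and 175, 256 and 410.1 in CONTROL embryos (log2 fold change -0.42, SE 0.16), and Taf6, with 42.5, 59.9 and 94.2 against 30.1, 88.5 and 119 (log2 fold change -0.39, SE 0.18). Within batches 1 and 2 the log2 fold changes were -0.52 and -0.31 for Taf13 and -0.18 and -0.67 for Taf6, and 0 members passed in either batch. Reads of mCherry-Trim21 were 514 ± 413 (SD) CPM in FOXJ3 LOF and 1136 ± 888 (SD) CPM in rIgG CONTROL embryos. With their level as a covariate the log2 fold changes were -0.34 for Taf13 and -0.04 for Taf6 (edgeR, unadjusted p = 0.066 and 0.85), and 0 members had an unadjusted p under 0.05. With ERCC scaling they were -0.26 and -0.29 (edgeR, unadjusted p = 0.26 and 0.30), and the 2 members with an unadjusted p under 0.05 were Gtf2h2 at 0.66 (unadjusted p = 0.028) and Gtf2f2 at 0.51 (unadjusted p = 0.049999), against 4.62% of all genes. Apart from the sparse Taf7l (-1.04; 31 and 67 reads in all), fold changes lay between -0.42 and 0.47, and the median was 0.06. The highest was that of Gtf2h2 (0.47, interval -0.003 to 0.94).

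For factors that were low after TBP removal, counts after FOXJ3 removal overlapped those of their CONTROL, as in the genes given here. Gtf2h5 had 265, 365 and 559 in FOXJ3 LOF and 119, 395 and 471 in rIgG CONTROL embryos, and Cdk7 had 90.2, 159 and 245 against 49.2, 166 and 262. Taf1c had 7.2, 21.04 and 54.2 against 1.09, 19.5 and 44.8, and Taf8 27.3, 64.3 and 137 against 10.9, 66.7 and 134. All 4 overlapped between groups, with the lowest CONTROL embryo below every LOF embryo. These lowest CONTROL values came from embryos 2 and 3 of batch 1, whose TFIIH ratios lay inside the range of TBP LOF.

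Further called members described by embryo in the TBP experiment were read in the same way after FOXJ3 removal. Mnat1, Btaf1 and the genes of TFIIA, TFIIB and the TAF paralogs are not listed here. In the TFIIH core, Gtf2h1 had 169, 273 and 455 in FOXJ3 LOF and 99.5, 266 and 459 in rIgG CONTROL embryos, and Gtf2h2 had 25.9, 45.4 and 101 against 6.97, 43.6 and 64.6. Ccnh of the CAK had 7.14, 29.1 and 72.6 against 3.95, 22.4 and 71.5. All 3 overlapped, and for Gtf2h2 4 of 16 LOF embryos lay above the highest CONTROL embryo. In TFIIE, Gtf2e2 had 29.9, 61.1 and 114 against 26.02, 46.1 and 108, and Gtf2e1 had 35.5, 59.996 and 109 against 40.8, 65.6 and 141. In TFIIF, Gtf2f2 had 191, 355 and 545 against 89.6, 326 and 509.8, and Gtf2f1 had 178, 273 and 449 against 168, 278 and 428. These subunits overlapped between groups, with log2 fold changes from -0.11 for Gtf2e1 to 0.30 for Gtf2f2. Among TAFs of TFIID, Taf9 had 452, 594 and 736 against 296, 551 and 985, and Taf12 had 56.8, 97.4 and 180.4 against 71.3, 111 and 188. Of the SAGA-type TAFs, Taf5l had 27.1, 49.001 and 77.9 against 10.9, 41.8 and 65.9, and Taf6l had 18.6, 25.3 and 62.8 against 13.9, 31.2 and 98.3. Taf12, higher after TBP removal, stood at -0.21 on the log2 scale here and did not pass. In SL1, Taf1a had 111, 157 and 227 against 59.1, 157 and 252, Taf1b 51.4, 115 and 189.9 against 30.6, 113 and 195, and Taf1d had 183, 294 and 436 against 131, 325 and 528. Dr1, the NC2 subunit, had 217, 268 and 426 against 233, 328 and 428, and 3 of 16 LOF embryos lay below the lowest CONTROL embryo. The groups overlapped in all of these.

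The difference between the effects of TBP and FOXJ3 removal was tested in 1 fit of all 4 groups with ERCC scaling. It was below 0 at an adjusted p under 0.05 for 24 of 43 members, and for 28.2% of the 18759 genes tested, and above 0 for 0 members and 0.954% of genes. The 24 were those called lower after TBP removal without Mnat1 (adjusted p = 0.072). For Gtf2h5 the difference was -2.49 (SE 0.39, adjusted p = 1.55e-06), for Cdk7 -2.10 (SE 0.38, adjusted p = 1.28e-05) and for Gtf2b -0.0022 (SE 0.45). With TMM 13 were below and 6 above, against 11.2% and 10.9% of all genes. The TBP and FOXJ3 embryos differ in antibody species and library preparation, and a difference between experiments that acts only on LOF embryos cannot be told apart from the effect of the target. In a test of whether the effect of FOXJ3 removal differed between library batches, 0 members passed (edgeR; smallest adjusted p 0.56; 3 members at an unadjusted p under 0.05, against 8.02% of all genes).

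**Figure D5:**
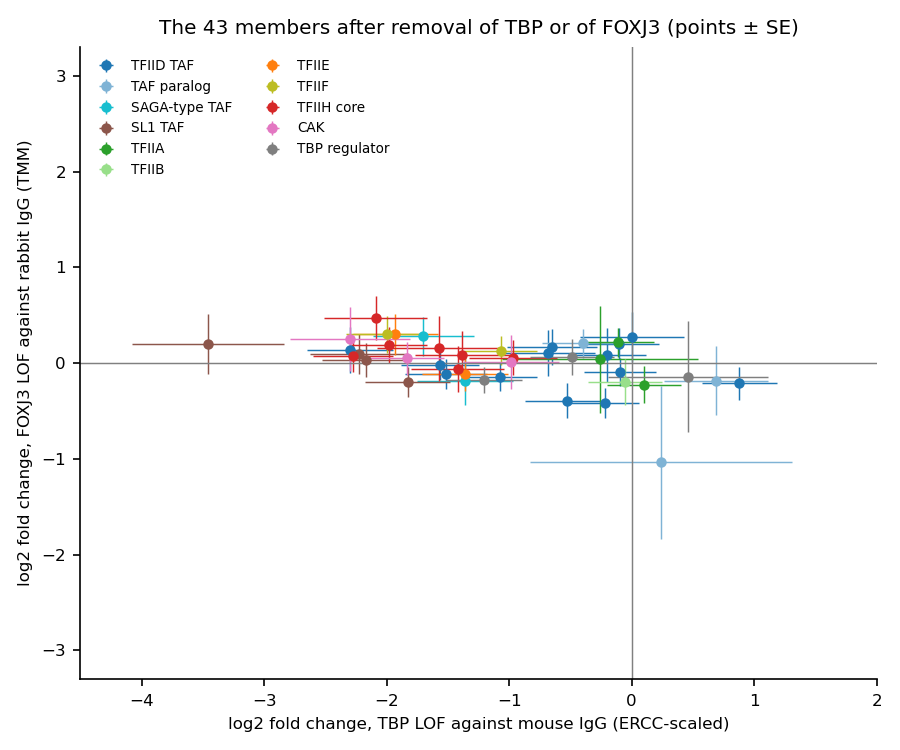
Log2 fold change of the 43 members after TBP removal (horizontal axis, ERCC-scaled, n = 9 and 9) and after FOXJ3 removal (vertical axis, TMM, n = 16 and 13), with SE bars and colours by role. Values spread from -3.46 to 0.88 along the TBP axis, and all but Taf7l lie within -0.42 and 0.47 on the FOXJ3 axis.

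Marker lists were read in the same embryos. All 8 markers of the late 2-cell stage (Zscan4c, Zfp352 and others) were found in each group, with summed levels of 177.3 to 685 CPM in TBP LOF and 340.2 to 629 in mIgG CONTROL embryos. The 6 oocyte markers, among them Zp3, Gdf9 and Bmp15, mark transcripts from before fertilisation. They summed to 556 to 973 CPM in TBP LOF and to 333 to 532 in mIgG CONTROL embryos, without overlap. In FOXJ3 LOF and rIgG CONTROL embryos they summed to 277 to 973 and 376 to 1469 CPM, so that the TBP LOF level is not particular to that group. On the ERCC scale the TBP LOF and mIgG CONTROL sums overlapped, at 582 to 2250.1 and 744 to 1375 normalized counts (medians 987 and 963). The late 2-cell markers summed on that scale to 275 to 1161 in TBP LOF and 715 to 1402 in CONTROL embryos (medians 567.8 and 957). Cumulus and granulosa markers reached at most 7.42 and 23.3 CPM, with Has2, Ptx3 and Inhba at 0 in both groups, and the 3 sperm markers at most 4.43 and 3.22. The 6 markers of later lineages, among them Cdx2 and Krt8, summed to 9.26 to 41.5 and 24.6 to 57.2 CPM, and on the ERCC scale to 17.4 to 62.3 and 58.5 to 145 normalized counts (medians 37.9 and 77.2). Their CPM sums also differed between the control groups, with a median of 33.6 in mIgG and 80.1 in rIgG CONTROL embryos. The part of these lists in the members' values was not tested.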

How the data were processed

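Single late 2-cell embryos were sequenced with Smart-seq+5'. The authors checked reads with FASTQC, trimmed them with Trimmomatic, mapped reads of 5' ends with STAR 2.7.11a to GRCm38 and counted them with TEcount on gencode M20. The deposited values are estimated counts (expected counts for TE families, whole numbers throughout) per gene, TE family and ERCC spike-in, without normalization, and rounding changed none. How reads with several positions were shared and whether strand was used is not stated in the sources used here, which can move overlapping and paralogous genes. Deposited counts of single TE insertions were not used here.

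Symbols, biotypes and positions came from gencode M21, and promoter windows from RefSeq (GRCm38.p6). Embryos with at least 500000 counted reads, at least 1000 genes, at most 10% mitochondrial and at most 15% ERCC reads were kept, 47 of 49; 1 mIgG CONTROL and 1 FOXJ3 LOF embryo (batch 1) were left out. Groups follow the labels, which give 9 TBP LOF and 10 mIgG CONTROL embryos; the Methods state them the other way round. Counted reads ranged from 1103569 to 5434808, so a gene's precision rests on the reads given beside it.

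Features (genes or TE families) seen in at least 25% of embryos with 1 read or more entered the quasi-likelihood test of edgeR 4.0.16 (two-sided, R 4.3.3). P-values were adjusted by Benjamini-Hochberg over all features, with a threshold of 0.05. In the TBP experiment, embryos were scaled on 42 ERCC transcripts (median of ratios; 41 in the fit of all groups). In the FOXJ3 experiment they were scaled by TMM, and library batch was a covariate. Normalized counts are counts divided by these factors. Standard errors were derived from the F statistic. Alternatives were TMM, DESeq2 1.42.0 size factors and test, other filters, all embryos, an mCherry-Trim21 covariate, a replicate block and leaving out each embryo. The test was tried on simulated data with TMM factors and equal numbers of features raised and lowered. That setting differs from the ERCC-scaled TBP fit, so that it does not bear on the calls of that fit. Tables and plots were made in Python 3.11.15 with pandas 2.3.3, numpy 2.4.6, matplotlib 3.10.9 and scipy 1.17.1. The members, roles and lists were chosen with earlier results of these data known. Values by embryo group, in both experiments, were given for the 2 called members of each role with the smallest adjusted p and for members called higher or called under both scalings, and others by fold change or range. P-values measure the spread between these embryos, taken as independent, and not that between the independent experiments in which the authors collected them.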

Additional observations from a re-analysis of the deposited data

Results flagged for a closer look

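For each member and Tbp, the highest and lowest embryo of the TBP LOF and mIgG CONTROL groups was compared with its nearest neighbour. In 11 of 88 such sets the gap took up more of the group's range than Dixon's 95% limit for 9 embryos (0.493). That limit flags about 1 in 20 when values are normally distributed. These were counts without a log transform, some near 0, so that no excess over chance is shown. In all of them it was the highest embryo.

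Among TBP LOF embryos, Ccnh stood at 21.3 ERCC-normalized counts in replicate 10 with the next embryo at 9.83. Taf12 stood at 279 ERCC-normalized counts in replicate 10 with the next embryo at 168. In the same group, Taf6 stood at 114 ERCC-normalized counts in replicate 8 with the next embryo at 52.8. Taf6l stood at 39.7 ERCC-normalized counts in replicate 8 with the next embryo at 19.3. In the same group, Taf7l stood at 8.06 ERCC-normalized counts in replicate 9 with the next embryo at 1.22. Replicate 10 was the highest for both Ccnh and Taf12, a member that was lower and one that was higher, and replicate 8 for both Taf6 and Taf6l.

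Among mIgG CONTROL embryos, Gtf2a1 stood at 459.9 ERCC-normalized counts in replicate 6 with the next embryo at 332. Gtf2f1 stood at 353 ERCC-normalized counts in replicate 10 with the next embryo at 226. Gtf2f2 stood at 785 ERCC-normalized counts in replicate 8 with the next embryo at 516. Taf4 stood at 113 ERCC-normalized counts in replicate 1 with the next embryo at 59.9. Taf6l stood at 64.5 ERCC-normalized counts in replicate 10 with the next embryo at 41.7. Taf7l stood at 5.42 ERCC-normalized counts in replicate 2 with the next embryo at 2.71. Replicate 10 was the highest for both Gtf2f1 and Taf6l. Taf7l had 14 reads in all in TBP LOF and 12 in CONTROL embryos.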

How the results depend on the processing

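The scaling of the embryos changed the most. With TMM 13 members were lower and 10 higher after TBP removal and the members' median log2 fold change was -0.20, and with the size factors of DESeq2, computed on genes and TE families, 14 were lower, 10 higher and the median was -0.18 (all genes 12.9% lower, 13.8% higher and a median of 0.15). Log2 fold changes that were below 0 with ERCC scaling lay above it with TMM for Btaf1 0.27, Gtf2a1 0.71, Gtf2a1l 0.86, Gtf2b 0.84, Taf1 0.093, Taf10 0.78, Taf13 0.71, Taf2 0.13, Taf3 0.73, Taf4 0.67, Taf4b 0.42, Taf6 0.28, and with DESeq2 size factors for Btaf1 0.29, Gtf2a1 0.73, Gtf2a1l 0.88, Gtf2b 0.86, Taf1 0.10, Taf10 0.82, Taf13 0.74, Taf2 0.15, Taf3 0.75, Taf4 0.69, Taf4b 0.44, Taf6 0.30. That the same members moved together follows from the construction, since a scaling shifts all genes alike.

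The DESeq2 test with ERCC scaling, testing without the filter on low counts and adding back the shallow embryos left 25 members lower and 1 higher, and filterByExpr left 23 lower of the 38 tested and 1 higher. Of all genes, 5662 of 18447 were lower with DESeq2, 6092 of 28073 without the filter and 5555 of 18553 with the shallow embryos. With filterByExpr 4056 of 7699 genes were lower. Genes called higher in these fits numbered 206, 460, 296 and 123. Taf5, which lay at 0, took the opposite sign with DESeq2 (-0.0059), filterByExpr (-0.0001) and the mCherry-Trim21 covariate (-0.0312), and Taf7l with the covariate (-0.94). Leaving out 1 embryo at a time gave 23 to 25 members lower, 0 to 1 higher (0 without LOF replicate 10) and medians of -1.22 to -1.001. Genes lower in these fits ran from 4952 of 18173 (without CONTROL replicate 10) to 5685 of 18182 (without LOF replicate 8). Signs changed in these fits for named members near 0: Gtf2a1 -0.21 to 0.0172, Gtf2a1l -0.66 to 0.10, Gtf2a2 -0.0453 to 0.21, Gtf2b -0.17 to 0.0903, Taf3 -0.22 to 0.0106, Taf4 -0.22 to 0.0727, Taf5 -0.19 to 0.12.

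Embryo numbers showed no clear pairing. The correlation of deviations between embryos of the same number lay between -0.05 and 0.13 over 7 TBP pairs and between -0.21 and 0.27 over 12 FOXJ3 pairs. In FOXJ3 batch 2, LOF embryos 1, 5 and 7 were most like the CONTROL embryo of their number, so that pairing there is not excluded. With the number as a replicate block, 22 members were lower and 2 higher after TBP removal (Taf9b, at 0.96, besides Taf12), where 24% and 1.48% of all genes were, and the same 14 embryos without the block, a fit chosen after seeing the data, gave 22 and 1 (23.5% and 1.72% of all genes). Ercc2, Gtf2h3 and Mnat1 lost their call in both. Of the other genes read, Atxn7, Kat2b and Brf1 were not called with the block (adjusted p = 0.10, 0.058 and 0.22). Signs changed with the block for Gtf2a1 0.13, Gtf2a1l 0.48, Gtf2b 0.0168, Taf3 0.0479, Taf4 0.0132, and without it in these embryos for Gtf2a1 0.13, Gtf2a1l 0.42, Taf3 0.0378, Taf4 0.0039. After FOXJ3 removal 0 members were called under every alternative run, and Taf7l stood at 0.28 with the block.

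Depth limits the sparse members. Taf7l, Gtf2a1l and Drap1 had under 100 reads in each group of the TBP experiment, with 95% intervals of the log2 fold change of -1.89 to 2.37, -1.86 to 1.34 and -0.84 to 1.76. Intervals and counts cover the spread between these embryos only. The authors state that embryos came from several independent experiments. The sources used here do not tie single TBP embryos to their collections, so that the tests treat embryos of a shared collection as independent.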

Other observations

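Single embryos of a group differed in these transcripts to different degrees. Over the 37 members with at least 100 reads in each group the coefficient of variation between embryos had a median of 34.1% in mIgG CONTROL (23.9% to 63.4%), 37.9% in rIgG CONTROL (16.8% to 106%) and 54.1% in TBP LOF embryos (21.4% to 87.7%). Cdk7 varied by 24.1% in mIgG CONTROL and 35.9% in TBP LOF embryos, Taf8 by 27.2% and 37.8%, and Taf1d, a subunit of SL1, by 23.9% and 80.1%. Taf13 varied by 25.4% and 21.4%. Values of mIgG CONTROL and TBP LOF embryos were ERCC-scaled. Those of rIgG CONTROL embryos were TMM-scaled over both library batches, so that they are not on a common footing with the other groups. Low counts raise this coefficient, and most members had fewer reads in TBP LOF embryos. The difference in spread between groups was not tested.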
